A study of Rattus norvegicus with 16 samples.

Results

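MiR-188 was measured in the plasma and the kidneys of rats that had received contrast medium or saline. It is 1 of the 350 rat microRNAs (miRNAs) on a 1-colour Agilent array. It was selected on its array signal, which was higher after contrast medium in both tissues, and because the study followed it up. Its differences between treatments are therefore given as a description, without a test. All 24 male Sprague-Dawley rats had no water for 3 days and then received furosemide, a diuretic, at 10 mg/kg. The rats called CI-AKI here, for contrast-induced acute kidney injury, were next injected in the tail vein with 10 ml/kg of Omnipaque, the iodinated medium iohexol, at 350 mg iodine per ml. Control rats received the same volume of saline. Blood and kidney were taken 8 h later, and RNA was pooled over sets of 3 rats, so that each of the 4 groups held 4 pools. The 24 rats made up 8 pools, so plasma and kidney came from the same animals. Dehydration and furosemide were thus shared by every animal, the controls included, and 1 array read 1 pool.

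MiRNAs are cut from hairpin transcripts by Drosha and Dicer. A single strand is loaded into Argonaute, and its seed, bases 2 to 8, pairs with target mRNAs and lowers their output. The Mir188 hairpin belongs to an X-linked group of miRNA genes that lie inside Clcn5, the gene of the ClC-5 chloride and proton exchanger. ClC-5 serves protein uptake in the proximal tubule, and its loss causes Dent disease. MiRNAs in plasma travel bound to proteins or in vesicles and come from many tissues, with a large share from blood cells.

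In RefSeq's GRCr8 assembly the hairpin lies at chrX:17919585-17919664 on the plus strand, inside Clcn5 (chrX:17857260-18011844). Mir532 starts 400 bases from it, and Mir362, Mir501 and Mir500 start 6900, 7604 and 11062 bases away. The hairpin is printed to show where both mature arms, in capitals, sit in the 80 bases.
Mir188 hairpin: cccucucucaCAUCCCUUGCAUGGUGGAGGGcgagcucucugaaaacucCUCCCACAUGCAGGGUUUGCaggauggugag
The mature arms are shown with those of its nearest neighbour, Mir532, since these are the cluster sequences closest to miR-188. Capitals mark the seed.
rno-miR-188-5p: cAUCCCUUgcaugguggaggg
rno-miR-188-3p: cUCCCACAugcaggguuugc
rno-miR-532-5p: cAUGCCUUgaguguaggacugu
rno-miR-532-3p: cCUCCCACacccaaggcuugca
The array calls its feature rno-miR-188, with no arm suffix. The files used here do not state which arm its 2 probes read, so the signals below are those of "miR-188" as the array names it. No other mature rat sequence in the RefSeq table shares the seed of either miR-188 arm. The 5p arms of miR-188 and miR-532 are identical at 14 of 21 aligned bases, and the 3p arms at 16 of 20 with a shift of 1 base.

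The labels leave a doubt that touches every comparison of treatments. Each sample carries a letter code, and 8 letters occur once in plasma and once in kidney. The treatment labels are opposite in the 2 tissues for 6 letters and the same for 2. The labels do not explain the letters, and groups were taken from the titles. For the 2 letters with the same label, G (CI-AKI) and H (control), the scaled miR-188 signal was 8.58 and 4.05 in kidney and 68.5 and 64.6 in plasma. If each letter marks 1 pool of rats, the treatment differences below would not hold in 1 of the tissues: with the plasma labels the kidney difference was -0.54 on the log2 scale, and with the kidney labels the plasma difference was -0.60. A change of sign follows largely from turning 6 of 8 labels.

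Arrays differed in strength. Plasma control pool 4 and CI-AKI pool 4 had total miRNA signals of 2838 and 5605, against 19799 to 96981 on the other plasma arrays, and 84 and 95 detected miRNAs against 156 to 211. Kidney CI-AKI pool 3 had the lowest total of the kidney arrays, 46951 against 68651 to 96006. Kidney markers fitted the labelled tissue: 7 of 8 listed epithelial miRNAs were on the array, and all 7 were detected on all kidney arrays. By limma with Benjamini-Hochberg adjustment, 6 of the 7 were higher in control kidney than in control plasma, beside 33.1% of all tested miRNAs. Among the 7, only miR-192 was also detected on all 4 control plasma arrays. The rest entered the test through kidney, which favours such calls. The liver miRNA miR-122 was detected on all plasma arrays and on no kidney array.

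MiR-188 was a plasma-rich miRNA on this array. With all 16 arrays scaled together, its signal in plasma control pools 1 to 4 was 97.3, 91.1, 103 and 133, and in CI-AKI plasma pools it was 199, 152, 191 and 142. In kidney control pools it was 2.57, 2.04, 2.52 and 2.05, and in CI-AKI kidney pools 3.80, 3.55, 10.1 and 3.99. The order of the group means was CI-AKI plasma at 171 ± 28.4 (SD, n = 4), control plasma at 106 ± 18.7, CI-AKI kidney at 5.36 ± 3.16 and control kidney at 2.30 ± 0.289. No neighbouring groups in this order overlapped, although the highest control plasma pool (133) and the lowest CI-AKI plasma pool (142) lay close together.

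**Figure D1:**
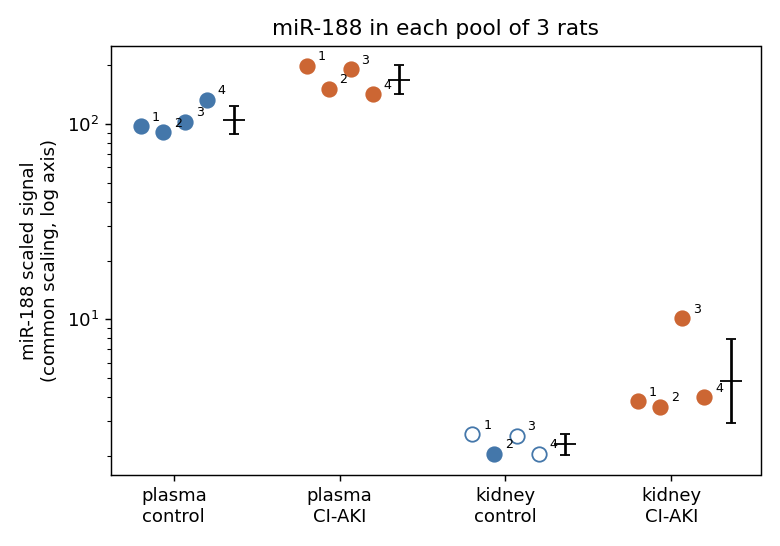
MiR-188 signal in each pool (numbered 1 to 4) after common scaling of all 16 arrays, on a log axis. Filled points were detected, open points were not, and black bars give the mean and SD of the log2 values (n = 4). Plasma pools lie between 91.1 and 199 and kidney pools between 2.04 and 10.1.

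The choice of miR-188 rested on differences between treatments, not between tissues, and the tissue difference was tested. In control pools it entered the test through plasma, since it was detected on 4 of 4 plasma arrays but on 1 of 4 kidney arrays. In control pools the kidney signal was lower by 5.53 on the log2 scale (SE 0.16, 95% interval -5.90 to -5.15, limma adjusted p = 2.6e-08), or 46.1-fold as measured, and each of the 4 kidney pools lay below every plasma pool. In CI-AKI pools it was lower by 5.13 (SE 0.35, 95% interval -5.91 to -4.35, limma adjusted p = 6e-07), or 35.1-fold, again in 4 of 4 pools. Large differences between tissues were common: 44.4% of 178 tested miRNAs were lower in control kidney and 46.4% of 181 in CI-AKI kidney. In either direction the shares were 77.5% and 74.6%. Groups that did not overlap, with kidney lower, made up 44.9% and 43.1%. A mean difference at least as low as that of miR-188 was shown by 9 of the 178 (5.06%) and 11 of the 181 (6.08%), miR-188 included. All plasma arrays lay on 1 slide and all kidney arrays on another, so tissue and slide cannot be told apart. The control kidney level lies at the edge of detection, so the size of the fold there is uncertain. On each control kidney array miR-188 read above the lowest signal of any detected miRNA. A limit set at that lowest signal therefore cannot change the fold. Background correction by normexp reduced the control difference to -2.27, and with no scaling it was -3.49.

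MiR-451 and miR-144, miRNAs of red blood cells, had tissue differences of the same order. In control pools they were -5.49 (SE 0.26, limma adjusted p = 3.5e-07) and -4.08 (SE 0.31, adjusted p = 4.67e-06) on the log2 scale. The 4 leukocyte miRNAs (miR-223, miR-142-3p, miR-142-5p and miR-150) were all lower in control kidney, miR-142-3p by 0.62 on the log2 scale and the others by 4.50 to 5.61. Neither set was chosen for its likeness to miR-188, and whether blood in the kidney samples has a part in the kidney signal of miR-188 was not tested.

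In kidney, the probes of miR-188 read close to background in control pools and above it in CI-AKI pools. Before any scaling, the processed signal was 4.88, 5.13, 5.63 and 3.78 in control pools 1 to 4 and 9.68, 8.52, 11.99 and 9.66 in CI-AKI pools. The groups did not overlap: the highest control value, 5.63, lay below the lowest CI-AKI value, 8.52. Of the 20 miR-188 spots on an array, 2, 2, 1 and 1 were well above background in control pools, and 16, 16, 18 and 10 in CI-AKI pools. The scanner software called miR-188 detected on control array 2 only among the control kidney arrays, and on all CI-AKI kidney arrays.

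Both probes, with 10 spots each, showed the rise. Before scaling, probe 1 read 2.93 to 6.08 in control pools and 7.65 to 11.3 in CI-AKI pools, and probe 2 read 4.18 to 5.17 and 9.39 to 12.6. Neither probe's groups overlapped. The ratio of probe 2 to probe 1 was 1.11 to 1.23 on the CI-AKI kidney arrays and 0.96 to 1.10 on the plasma arrays. On the control kidney arrays it spread from 0.69 to 1.58, where both signals were a few units above zero and the SD over spots was 1.35 to 3.32.

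**Figure D2:**
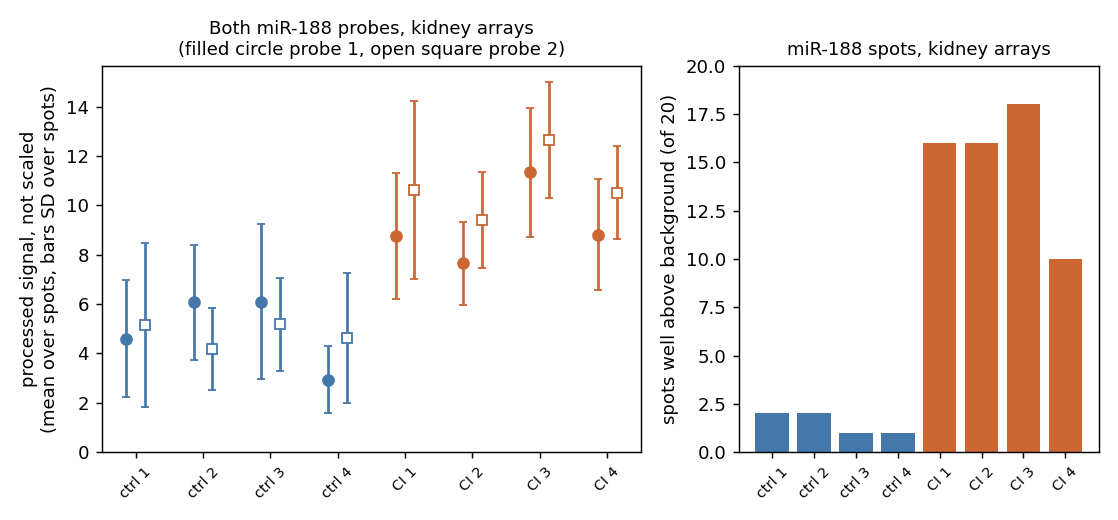
Left, mean processed signal over spots of probe 1 (filled circles) and probe 2 (open squares) on each kidney array before scaling, with the SD over spots as bars. Right, number of the 20 miR-188 spots well above background. Control arrays (ctrl) hold 1 or 2 such spots and CI-AKI arrays (CI) 10 to 18.

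Scaling within kidney set 1 pool apart. The scaled signal was 5.45, 4.24, 5.35 and 4.05 in control pools and 8.03, 7.35, 20.0 and 8.58 in CI-AKI pools, or 4.77 ± 0.728 and 11.0 ± 6.03 (SD, n = 4). CI-AKI pool 3 stood far above the other 3 CI-AKI pools, which lay between 7.35 and 8.58. Its array had the largest scale factor in kidney, 1.67 against 0.828 to 1.12 on the others, while its signal before scaling, 11.99, was also the highest. The log2 difference was 1.08 with a pooled SD of 0.50, or 2.12-fold as measured. MiR-188 was detected on 1 of 4 control arrays, so the size of this fold is uncertain. Without CI-AKI pool 3 the log2 difference was 0.74 with an SD of 0.16. The groups did not overlap, as for 5.11% of the 176 tested kidney miRNAs in that direction. A mean difference as large was shown by 2 of the 176 (1.14%), miR-188 itself and miR-327. The SD of the log2 signal in CI-AKI kidney, 0.67, was above the median of 0.13 over all tested miRNAs, and 2 of 176 had a larger one.

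The difference had the same sign in both rows of the slide, with 0.67 in the upper and 1.49 in the lower row, which held pool 3. Treatment cannot be told apart from slide column, because the treatments alternate along the columns of each slide. The authors' processed log2 values were 1.69, 1.76, 1.91 and 1.69 in control and 2.97, 2.77, 4.19 and 3.20 in CI-AKI kidney, a difference of 1.52. Pool 3 was the highest there too. Over 12 ways of summarising or scaling the signal the kidney groups overlapped in 1, normexp background correction, where the difference was 0.11. Blood cell miRNAs were summed on the common scale of all 16 arrays. The 2 red blood cell miRNAs summed to 105.4 to 227 in control and 183 to 200 in CI-AKI kidney pools. The 4 leukocyte miRNAs summed to 244 to 281 and 222 to 286. The part of these miRNAs in the miR-188 difference was not tested. Scaled within kidney, miR-451 and miR-144 differed by 0.26 and 0.13 on the log2 scale, with limma adjusted p = 0.917 for each. In bulk samples such as these, a change in the number of cells that hold miR-188 and a change in its level per cell cannot be told apart.

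In plasma, miR-188 was brighter than in kidney on the full-strength arrays, and the difference between treatments was smaller. Before scaling, the signal was 83.4, 100.5, 159.9 and 6.33 in control pools 1 to 4 and 79.3, 213.7, 163.3 and 12.4 in CI-AKI pools. These values overlapped widely, and pool 4 was far below the rest in both groups. After scaling within plasma they were 47.1, 44.2, 51.8 and 64.6 in control pools and 96.7, 67.7, 92.7 and 68.5 in CI-AKI pools, or 51.9 ± 8.99 and 81.4 ± 15.5 (SD, n = 4). The lowest CI-AKI value, 67.7, lay just above the highest control value, 64.6, which came from the weak array of pool 4. On that array 6 of 20 miR-188 spots were well above background, and 20 of 20 were on every other plasma array.

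The log2 difference in plasma was 0.64 with a pooled SD of 0.26, a 1.56-fold change. The groups did not overlap, as for 2.08% of the 96 tested plasma miRNAs in that direction, and 3.12% had a mean difference as large, miR-188 included. Pools of the same number lay side by side on the slide, and their differences were 1.04, 0.61, 0.84 and 0.085 for pools 1 to 4. Without pool 4 of both groups the difference was 1.08. By slide row it was 0.83 (upper) and 0.46 (lower). Scaled to the labelling spike-in, a synthetic RNA, it was 0.29 and the groups overlapped. They overlapped in 4 of 12 ways of summarising or scaling the signal: no scaling, the labelling spike-in, normexp and probe 2 alone. The authors' processed log2 values were 6.73, 6.51, 6.51 and 7.02 in control and 7.82, 7.18, 7.49 and 7.39 in CI-AKI plasma, a difference of 0.78 without overlap.

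**Figure D3:**
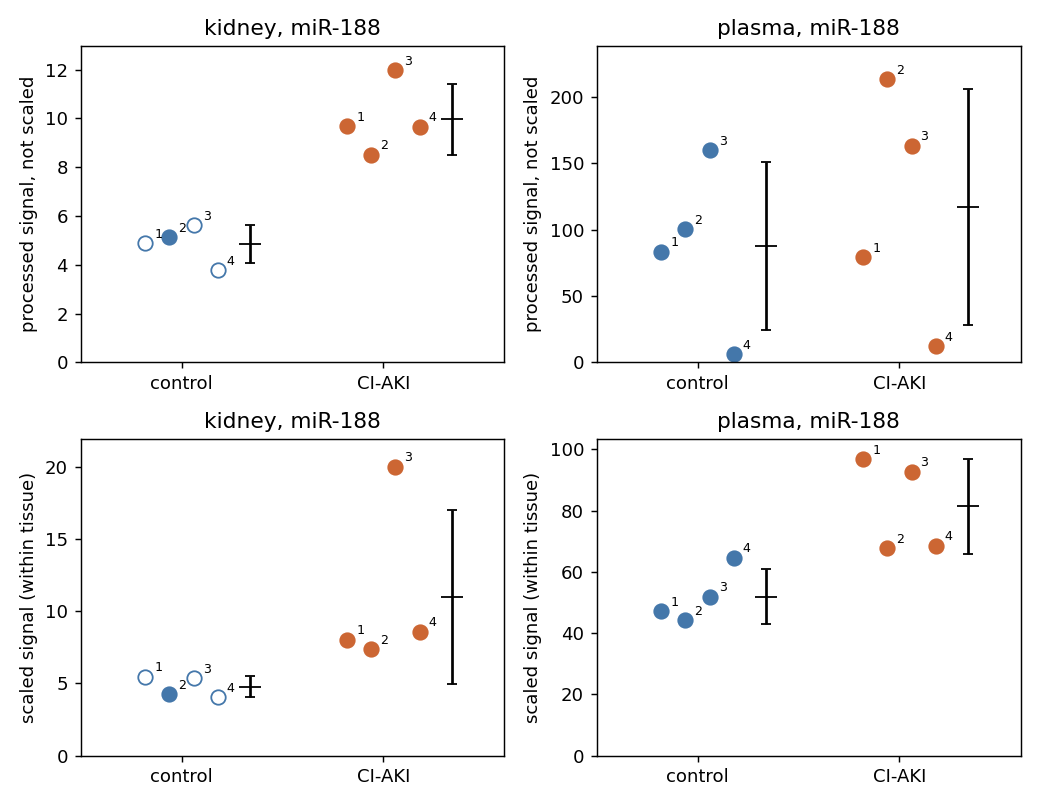
MiR-188 signal in each pool before scaling (top) and after scaling within the tissue (bottom), in kidney (left) and plasma (right), with the mean and SD (n = 4). Open points were not detected. Scaling lifts kidney CI-AKI pool 3 from 11.99 to 20.0 and brings plasma pool 4 to the level of the other pools.

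The blood cell miRNAs were measured in the same plasma pools. The summed signal of those of red blood cells, most of it miR-451, on the common scale, ran from 5425 to 8938 in control and from 3535 to 13263 in CI-AKI pools, and that of the leukocyte miRNAs from 4724 to 6231 and from 3229 to 7231. MiR-451 differed by -0.088 (SE 0.41, limma adjusted p = 0.959), miR-144 by 0.43 (SE 0.43, adjusted p = 0.941) and miR-122, the liver miRNA, by -0.61 (SE 0.57, adjusted p = 0.941). Their part in the miR-188 difference was not tested.

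**Figure D4:**
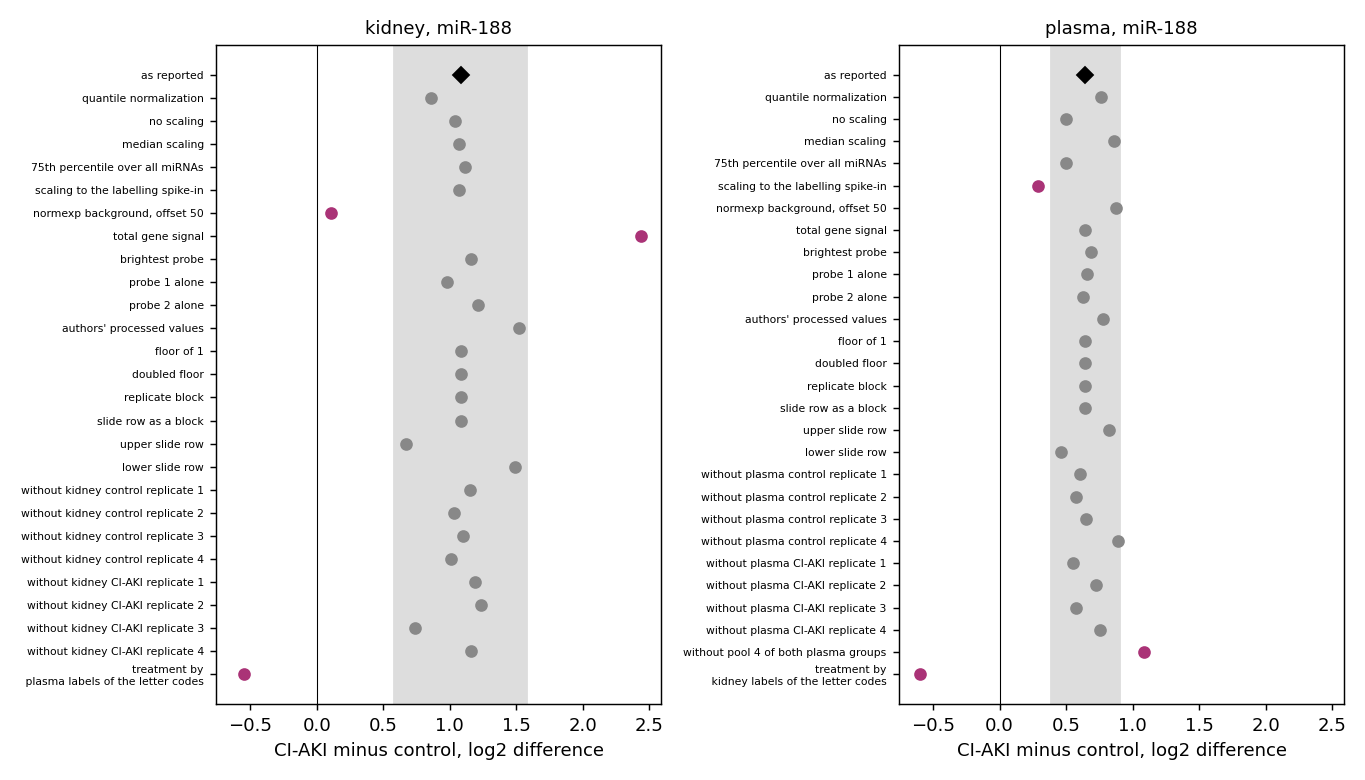
Log2 difference of miR-188, CI-AKI minus control, as reported (diamond) and under each alternative (circles), in kidney (left) and plasma (right). The grey band is the reported difference plus and minus the pooled SD. Purple circles lie outside the band or beyond zero, among them -0.54 and -0.60 with the treatment labels of the other tissue.

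Over all tested miRNAs, 87 were tested in both tissues. MiR-188 and miR-327, a rat miRNA with no family member sharing its seed in the RefSeq table, were the 2 that were higher in CI-AKI pools without overlap in each tissue (2.3% of the 87). For miR-188 this is the pattern it was chosen for.

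Of the Clcn5 cluster the array read 4 miRNAs besides miR-188, miR-532-5p, miR-532-3p, miR-500 and miR-501, and 3 were tested. MiR-532-5p was 11.2 ± 0.993 in control and 11.1 ± 0.728 in CI-AKI kidney pools (SD, n = 4). MiR-532-3p, the opposite arm of the same hairpin, was 6.92 ± 0.205 and 7.06 ± 0.805, and miR-500 was 37.5 ± 2.98 and 40.0 ± 4.54. All 3 were detected on every kidney array, and their groups overlapped. Their log2 differences were -0.0081 (95% interval -0.20 to 0.18), 0.021 (-0.18 to 0.22) and 0.092 (-0.12 to 0.30). In limma with Benjamini-Hochberg adjustment 0 of the 3 passed (adjusted p from 0.917 to 0.981), where 1.7% of the 176 kidney miRNAs passed. At an unadjusted p under 0.05 it was 0 of the 3 and 6.25% of the 176. Whether miR-188 differed from its neighbours was not tested. The median difference of the 3 was 0.021, beside 0.028 over all tested kidney miRNAs.

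MiR-501 was detected on no array of either tissue. In plasma none of the cluster's other members reached the detection rule, so 0 were tested. Of 96 plasma miRNAs 0 passed in limma, with 5 (5.21%) at an unadjusted p under 0.05. MiR-500 was detected on 3 of 4 arrays in each plasma group, where control pools read 23.1 ± 5.47 and CI-AKI pools 23.2 ± 5.71 (SD, n = 4). MiR-532-5p was also detected on 3 of 4 in each, at 5.68 ± 1.56 and 7.06 ± 1.79. MiR-532-3p was detected on 3 of 4 control and 2 of 4 CI-AKI arrays. It read 3.34 ± 0.519 and 5.84 ± 2.87, an untested log2 difference of 0.71. Control pools lay between 2.65 and 3.85, and CI-AKI pools 2 and 3, where it was detected, read 3.68 and 4.58. CI-AKI pools 1 and 4, where it was not detected, read 5.06 and 10.1. On the weak array of CI-AKI pool 4 the lowest signal of a detected miRNA was 18.4, so the size of this difference is uncertain.

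Between tissues the cluster members leaned the same way as miR-188 by smaller amounts. In control pools, kidney was lower than plasma by 1.07 on the log2 scale for miR-532-5p (SE 0.20, limma adjusted p = 0.00124), by 1.02 for miR-532-3p (SE 0.14, adjusted p = 0.000179) and by 1.36 for miR-500 (SE 0.18, adjusted p = 0.000147). All 3 of 3 tested passed, with 77.5% of all tested miRNAs passing in either direction. The count of calls varied with the processing: 0 of 3 passed with no scaling, 1 with normexp, 1 in the authors' processed values, and 2 or 3 with the other scalings tried. In CI-AKI pools the differences were -1.43, -1.75 and -1.32, with limma adjusted p of 0.000281, 0.000446 and 0.000453.

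**Figure D5:**
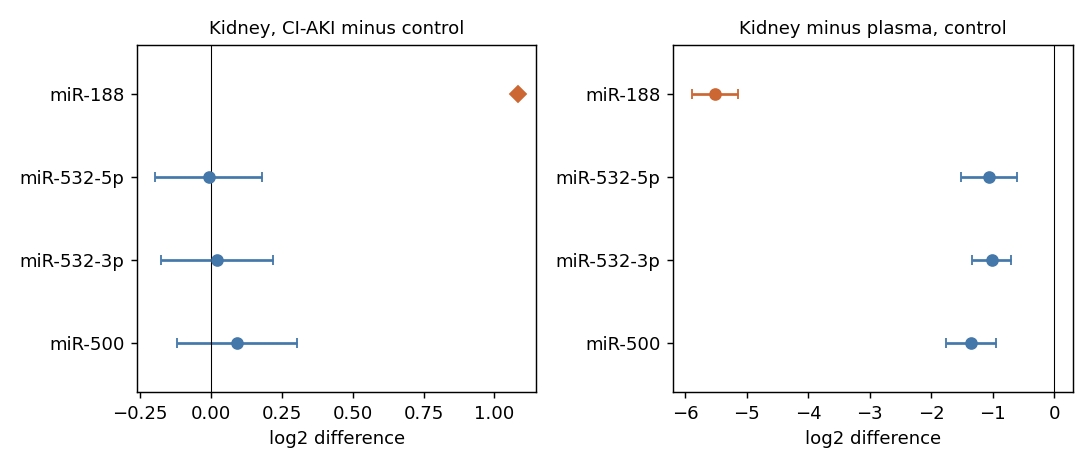
Log2 differences of miR-188 and the 3 tested cluster members, left between CI-AKI and control kidney, right between control kidney and control plasma. Bars are 95% intervals from limma (n = 4 pools a group). The kidney treatment difference of miR-188 (diamond) is shown without an interval, since it was chosen for that difference.

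MiR-30a and miR-30e of the miR-30 family were followed up together with miR-188. In kidney they differed little, by 0.076 (95% interval -0.067 to 0.22) and 0.028 (-0.20 to 0.26) on the log2 scale. In plasma they differed by 0.34 (-0.69 to 1.37) and 0.32 (-0.53 to 1.17). None passed in limma (adjusted p = 0.917 and 0.957 in kidney and 0.941 for both in plasma). The study chose them on these samples.

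The miRNAs whose signals ran most like miR-188 were found by Pearson correlation of log2 signals, given as a description. Over 16 arrays and 184 other miRNAs the highest were miR-874 (r = 0.987), miR-423 (0.984), miR-125a-3p (0.982), miR-327 (0.982) and miR-291a-5p (0.981). The points share the split into 2 tissues on 2 slides, and all 5 were brighter in plasma. Within the 8 plasma arrays, which share 2 weak arrays and the scaling, the closest of 95 were miR-327 (0.873), miR-874 (0.872), miR-291a-5p (0.862), miR-125a-3p (0.771) and miR-320 (0.662). Without pool 4 of both groups, 6 arrays, the value for miR-874 was 0.987 and for miR-327 0.872.

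Within the 8 kidney arrays the closest of 175 were miR-542-5p (0.930), miR-99a (0.885), miR-320 (0.876), miR-22 (0.869) and miR-27b (0.866). CI-AKI pool 3 weighed on these: without it the values were 0.741, 0.702, 0.554, 0.432 and 0.905. MiR-320 read 68.1 in that pool and 31.0 to 34.1 in the other CI-AKI pools, a split like that of miR-188. MiR-27b read 857, 818, 883 and 851 in CI-AKI and 786, 787, 775 and 719 in control kidney pools. These did not overlap, as for 5.11% of the 176 tested kidney miRNAs in that direction. Its log2 difference was 0.15 (SE 0.060, limma adjusted p = 0.60). MiR-27b was picked for its likeness to miR-188 on these same arrays, so its separation is a description.

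Of the miRNAs closest to miR-188 in plasma, miR-327 and miR-874 had differences of 0.89 (SE 0.31) and 0.75 (SE 0.31) on the log2 scale, with limma adjusted p = 0.836 for each. MiR-327 read 177, 244, 196 and 329 in control and 686, 378, 363 and 348 in CI-AKI plasma pools. As in miR-188, control pool 4 was the highest control pool. The groups did not overlap, as for 2.08% of the 96 tested plasma miRNAs in that direction. MiR-874 read 17.6, 17.3, 22.9 and 37.3 in control and 43.8, 28.4, 37.5 and 44.7 in CI-AKI pools, and there they overlapped. In kidney, miR-327 was detected on 0 of 4 control and 4 of 4 CI-AKI arrays, so it entered the kidney test through the CI-AKI pools. MiR-327 was at least 10.6-fold higher in those pools, given as a description. MiR-874 differed by 0.27 (SE 0.14, adjusted p = 0.917), with control pools at 6.87 ± 0.839 and CI-AKI pools at 8.36 ± 1.65 (SD, n = 4).

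The sequences of these miRNAs are printed where the array's name matches a RefSeq name exactly, to set their composition beside that of miR-188. Capitals mark the seed.
rno-miR-327: cCUUGAGGggcaugagggu
rno-miR-125a-3p: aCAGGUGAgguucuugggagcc
rno-miR-291a-5p: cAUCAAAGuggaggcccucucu
rno-miR-542-5p: cUCGGGGAucaucaugucacga
None shares a seed with either arm of miR-188. Their G and C content was 63.2%, 59.1%, 54.5% and 54.5%, beside 61.9% for miR-188-5p and a median of 47.8% over 693 mature rat sequences. G alone made up 47.4% of miR-327, 40.9% of miR-125a-3p and 38.1% of miR-188-5p. It was 27.3% of miR-542-5p, 25.0% of miR-188-3p and 22.7% of miR-291a-5p, with a median of 23.8% over all. These shares describe few sequences and were not tested.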

How the data were processed

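MiRNAs were read on 16 one-colour Agilent arrays, 1 for each pool. Per the file headers, the authors extracted spot intensity with Feature Extraction 10.7.3.1, giving a background-corrected processed signal and detection calls. The authors' deposited log2 table served as an alternative. Its quantiles differ by at most 0.048 between columns and each column's median is 2.28; how it was made is not given in the sources used here.

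Processed signals were averaged over spots without outlier flags, then over probes. The scale of an array was its 75th percentile among miRNAs detected throughout the comparison (163 in kidney, 74 in plasma, 65 across both). The lowest signal of a detected miRNA was found on each array, and scaled signals below the median of these (1.79, 0.976 and 1.31) were raised to it, then put on the log2 scale, on which all differences are given. No spot was saturated. Tests used limma 3.58.1 in R 4.3.3, were two-sided and covered miRNAs detected in all 4 pools of either group, with a threshold of 0.05 on the Benjamini-Hochberg adjusted p. The fit was also run on simulated data with independent normal noise, and the outcome is not used here. Alternatives covered background correction, scaling, floor, probes, detection filter, slide row, letter codes, blocks and left-out pools. The likeness values without kidney CI-AKI pool 3 or plasma pool 4 were added after seeing the data.

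Named are miR-188, its cluster, same-seed miRNAs, miR-30a and miR-30e, the 5 miRNAs most like it over all, kidney and plasma arrays, and tissue markers. MiR-188 and these lists were chosen with earlier results of these data known. MiR-10a and miR-486, listed as markers, matched no array name. Replicates are pools of separate rats, and their number limits the precision.

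Pools of the same number deviated together between the plasma groups (correlation over miRNAs 0.22, 0.49, 0.62 and 0.60 for pools 1 to 4), so the number was taken to pair them there. The SEs, SDs and p-values given above do not use this pairing. Results with the number as a block are given below. Same-numbered plasma pools also lie side by side on the slide. Whether number or letter marks the same rats in plasma and kidney is unsettled.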

Additional observations from a re-analysis of the deposited data

Results flagged for a closer look

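In kidney CI-AKI pools, the scaled miR-188 signal of pool 3, 20.0, stood far from the other 3 pools, which lay between 7.35 and 8.58. Both probes showed it, with 18.9 for probe 1 against 6.60 to 7.82 and 21.1 for probe 2 against 8.10 to 9.33. These 3 values share their spots, and chance marks about 1 in 20 groups in such a comparison of 4 samples; 22 sets of 4 were examined. Before scaling pool 3 read 11.99 against 8.52 to 9.68.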

How the results depend on the processing

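In kidney the miR-188 difference of 1.08 moved to 0.11 with normexp background correction and to 2.44 with the total signal per miRNA, which for an undetected miRNA is an error estimate, and turned to -0.54 with the plasma labels of the letter codes. In plasma the difference of 0.64 moved to 0.29 with scaling to the labelling spike-in and to 1.08 without pool 4 of both groups, and turned to -0.60 with the kidney labels. Other alternatives moved either difference by less than the spread between pools, 23 of 26 in kidney and 24 of 27 in plasma. These counts include the changed floors and the slide row and replicate blocks, which could not move either difference. MiR-188 read above each floor, and the blocks are balanced. In kidney the spread used, an SD of 0.50, was 0.16 without CI-AKI pool 3. Leaving out each pool gave 0.74 to 1.23 in kidney and 0.55 to 0.89 in plasma. The tissue difference kept its sign and stayed past the threshold in each alternative in which miR-188 was tested. In control pools these were 30 (-6.43 to -2.27, limma adjusted p up to 0.0232, and -5.59 to -5.27 leaving out each pool). In CI-AKI pools they were 31 (-5.97 to -2.95, limma adjusted p up to 0.0144, and -5.49 to -4.98 leaving out each pool). The filter of detection on every array left miR-188 untested in control pools, where 1 of 4 kidney arrays detected it. The count of cluster members lower in control kidney fell from 3 to 0 with no scaling and to 1 with normexp and with the authors' processed values; the cause was not tested. It was 3 without each pool. Between treatments in kidney, 0 of the 3 tested cluster members passed under every alternative run. In plasma most alternatives tested no cluster member, so their count could only be 0. Where 2 or 3 members were tested in plasma, 0 passed. With the replicate block the differences were 1.08 and 0.64, as without it, since the design is balanced, and the tissue differences were -5.53 (limma adjusted p = 2.26e-05) and -5.13 (2.18e-06). The block changed no call of miR-188 or of its cluster. Over all tested miRNAs it left 0 calls in plasma and 3 in kidney, as without it, and lowered the tissue calls from 138 to 132 in control and from 135 to 134 in CI-AKI pools. Outside plasma, same-numbered pools had correlations of -0.10 to 0.59 within kidney and -0.096 to 0.32 between tissues, so pairing by number is unsettled there. In kidney controls the signal over background limits miR-188 to 1 detected array of 4.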
